A study of Homo sapiens with 15 samples.

Results

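The chromatin loops of the HOXB13 promoter were examined in LNCaP cells, a long-established line from a prostate cancer metastasis whose growth responds to androgen. Loops were chosen by position: of the 505995 different loops of the series, 9 had a 1 kb anchor overlapping the window of 2.5 kb on either side of the HOXB13 start. The cells were kept for 3 days in medium with hormone-depleted serum and then received 10 nM dihydrotestosterone (DHT), a potent androgen, over 30 m, 4 h, 16 h and finally 72 h, while the 0 m cells received the ethanol vehicle. HiChIP was used for the contacts: in fixed nuclei, DNA ends near each other in space are ligated, and an antibody enriches the fragments that carry a histone mark before their ends are sequenced as a read pair. The antibodies were to H3K27ac, a mark of active enhancers and promoters, with 2 labelled replicates per time point, and to H3K4me3, a mark of active promoters, with 1. The groups differed in no other labelled way, and all come from this single cell line.

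HOXB13 is the homeobox gene at the end of the HOXB cluster that is switched on latest in development, and its product binds DNA in the caudal part of the embryo. In the adult its expression is largely kept to the prostate and distal gut, and in prostate cells the protein binds chromatin together with the pioneer factor FOXA1. A promoter is contacted by elements at many distances, and in HiChIP the contact frequency of a pair of sites depends both on how often they meet and on how much of the mark they carry.

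HOXB13 (ENSG00000159184) has 1 annotated transcript of 2 exons on the minus strand of chromosome 17, from 46802125 to 46806112 in hg19, so upstream of its start means towards higher coordinates. All 9 loops left from the same promoter anchor at chr17:46807001-46808000, whose centre lies 1.39 kb upstream of the start in sequence with no annotated gene. This anchor stands for the 5 kb bin from 46805001 to 46810000, in which the contacts were counted and which also holds the HOXB13 start. Of the 9 partners, 5 lay upstream and 4 downstream, and 4 fell in the promoter window of a coding gene. None of the 9 loops was in both reference sets: 2 were called from H3K27ac and 7 from H3K4me3. Over the whole series 68822 of 505995 loops were in both, so most loops were in a single set.

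The loops were of 2 kinds. Both strong loops joined the promoter bin to an adjacent bin at the shortest distance called, 5 kb. The partner of the first, called the gene-body loop here, lay at chr17:46802001-46803000, 3.61 kb inside HOXB13, where its last exon meets the 3′ end of PRAC2, a small gene expressed in prostate and transcribed from the opposite strand. The partner of the second, the upstream loop, lay 6.39 kb upstream of the start at chr17:46812001-46813000, in sequence with no annotated gene. The bin around it also holds a lncRNA, ENSG00000242407, from 4.34 to 5.14 kb upstream. The gene-body loop was called only from H3K4me3 and the upstream loop only from H3K27ac, though both have contacts in both marks. The other 7 loops were 215 to 835 kb long and held few read pairs.

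Sequence is shown for the anchors of the upstream loop that carry no annotated gene, as 300 bases each of the GRCh37 plus strand, with matches to the motifs searched in capitals. The first is the middle of the promoter anchor, chr17:46807351-46807650, which held no match. The second is the stretch of the upstream partner with the most matches, chr17:46812097-46812396, which held 3.
promoter anchor: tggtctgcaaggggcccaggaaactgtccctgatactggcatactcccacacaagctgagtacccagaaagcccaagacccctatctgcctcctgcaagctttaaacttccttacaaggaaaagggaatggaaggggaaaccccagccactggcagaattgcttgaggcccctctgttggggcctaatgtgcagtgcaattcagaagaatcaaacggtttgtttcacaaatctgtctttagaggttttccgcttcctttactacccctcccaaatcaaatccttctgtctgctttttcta
upstream partner: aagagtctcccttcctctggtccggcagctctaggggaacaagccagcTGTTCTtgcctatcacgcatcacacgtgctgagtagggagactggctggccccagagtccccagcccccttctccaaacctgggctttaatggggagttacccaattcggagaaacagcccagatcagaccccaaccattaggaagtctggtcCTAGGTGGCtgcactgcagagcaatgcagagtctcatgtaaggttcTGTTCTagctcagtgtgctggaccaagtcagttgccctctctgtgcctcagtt
The motifs were searched on both strands over each 1 kb anchor. For HOXB13 itself the letters were CCAATAAA. For forkhead factors such as FOXA1 they were TGTTTAC. A single arm of the androgen response element was searched as AGAACA. Part of the CTCF motif was searched as CNAGNNGGC. The GATA family was represented by the run AGATAA. In the printed stretch both TGTTCT runs are AGAACA read on the other strand, and the run between them is the partial CTCF motif. Over the whole upstream partner there were 3 AGAACA matches and 1 CNAGNNGGC match, and no 2 matches overlapped. No match to any of the 5 was found in the promoter anchor or in the gene-body partner. Such short motifs are common: of the 210045 different anchors in the series, 55.6% held AGAACA, 30.7% CNAGNNGGC, 50.1% AGATAA, 14.5% TGTTTAC and 5.17% CCAATAAA. CCAATAAA was in 0 of the 10 HOXB13 anchors, TGTTTAC in 1, AGAACA in 4, CNAGNNGGC in 5 and AGATAA in 3. These matches describe letters only and no binding was measured.

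Contact frequency is given in scaled read pairs, the deposited unit, with 95% exact Poisson intervals from the read pairs behind each value. In the H3K27ac data the gene-body loop had contacts of 123, 158, 122, 169 and 178 in the order of the times from 0 m to 72 h, from 417, 880, 571, 798 and 677 read pairs. The upstream loop had 116, 135, 140, 182 and 160 at the same times, from 395, 753, 654, 859 and 609 read pairs. Both were thus highest late, but the gene-body loop was back at its 0 m level at 4 h, when the upstream loop was not. The intervals of the gene-body loop ran from 111 to 135 at 0 m, from 148 to 169 at 30 m and from 112 to 132 at 4 h, so the 30 m value stood apart from both of its neighbours.

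In the H3K4me3 data the gene-body loop had contacts of 81.5, 75.8, 85.1, 91.2 and 51.7 in that order, from 289, 222, 1074, 472 and 188 read pairs. The upstream loop had 45.4, 48.5, 55.4, 65.5 and 31.9, from 161, 142, 699, 339 and 116 read pairs. Here both loops were lowest at 72 h, and the gene-body loop was the stronger at every time point. At 72 h the interval of the gene-body loop, 44.5 to 59.6, lay below the 72.4 to 91.5 of 0 m.

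**Figure D1:**
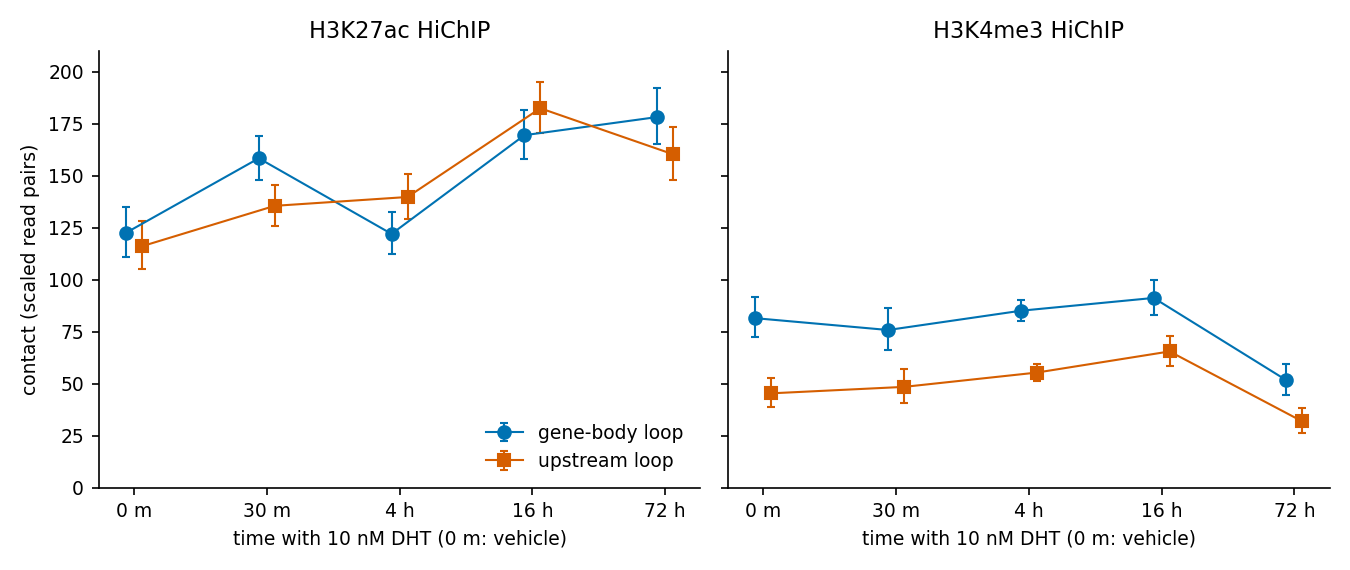
Contact of the gene-body loop (circles) and the upstream loop (squares) of HOXB13, in scaled read pairs, against time with DHT, for H3K27ac (left) and H3K4me3 (right). Bars are 95% counting intervals; the H3K27ac contacts were highest at 16 h or 72 h and the H3K4me3 contacts fell to 51.7 and 31.9 at 72 h.

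Summed over all 9 loops, HOXB13 promoter contact in H3K27ac was 241, 297, 264, 355 and 341 in the order of the times. In H3K4me3 it was 131, 128, 144, 158 and 85.8. H3K27ac contact was thus higher than at 0 m at 30 m, 16 h and 72 h, with a difference at 4 h close to the limit of counting. H3K4me3 contact was higher at 16 h under the deposited scaling and lower at 72 h. Vehicle cells were labelled only for 0 m, so DHT and added time in culture cannot be told apart. On the log2 scale the H3K27ac sum differed from 0 m by 0.30 at 30 m (95% interval 0.18 to 0.42), 0.13 at 4 h (0.0032 to 0.26), 0.56 at 16 h (0.43 to 0.68) and 0.50 at 72 h (0.37 to 0.63). The H3K4me3 sum differed by -0.04 at 30 m (-0.24 to 0.16), 0.13 at 4 h (-0.02 to 0.28), 0.27 at 16 h (0.10 to 0.44) and -0.62 at 72 h (-0.83 to -0.41). With read pairs scaled to equal totals in place of the deposited scaling, the 16 h difference was 0.31 in H3K27ac (0.19 to 0.43) and 0.13 in H3K4me3 (-0.033 to 0.30), where the interval then included 0. The 4 h difference was then 0.063 in H3K27ac (-0.065 to 0.19) and -0.094 in H3K4me3 (-0.24 to 0.056). These intervals come from an exact binomial comparison of read pairs and cover counting error only. Since each loop has a single value for a mark at a time, there is no replicate error, so none of these differences was tested against the spread between cultures.

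Relative to other loops of the same length the H3K27ac rise was not large. All 28409 loops of 5 kb, pooled, in H3K27ac differed from 0 m by 0.29, 0.26, 0.69 and 0.50 at the 4 times, and all loops of any length by 0.09, 0.07, 0.25 and 0.17. Set against the other 5 kb loops, HOXB13 differed by 0.01 at 30 m (-0.11 to 0.14), -0.13 at 4 h (-0.26 to -0.0036), -0.13 at 16 h (-0.25 to -0.0075) and -0.0045 at 72 h (-0.13 to 0.12). The HOXB13 sum therefore followed its length class at 30 m and 72 h within counting error, and lay slightly below it at 4 h and 16 h. Taken singly, the gene-body loop differed from the other 5 kb loops by -0.27 at 4 h (-0.46 to -0.08) and -0.22 at 16 h (-0.39 to -0.04). The upstream loop differed by 0.0034 (-0.18 to 0.19) and -0.03 (-0.21 to 0.14).

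In H3K4me3 the pooled 5 kb loops differed from 0 m by 0.09, 0.33, 0.26 and -0.27 at the 4 times. Set against the others of that length, HOXB13 differed by -0.13 (-0.33 to 0.07), -0.20 (-0.35 to -0.05), 0.01 (-0.16 to 0.18) and -0.35 (-0.56 to -0.14) at the 4 times. The fall of the sum at 72 h was thus larger than that of the pooled class. For the gene-body loop this difference was -0.39 (-0.66 to -0.12), and for the upstream loop -0.24 with an interval that included 0 (-0.60 to 0.11).

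**Figure D2:**
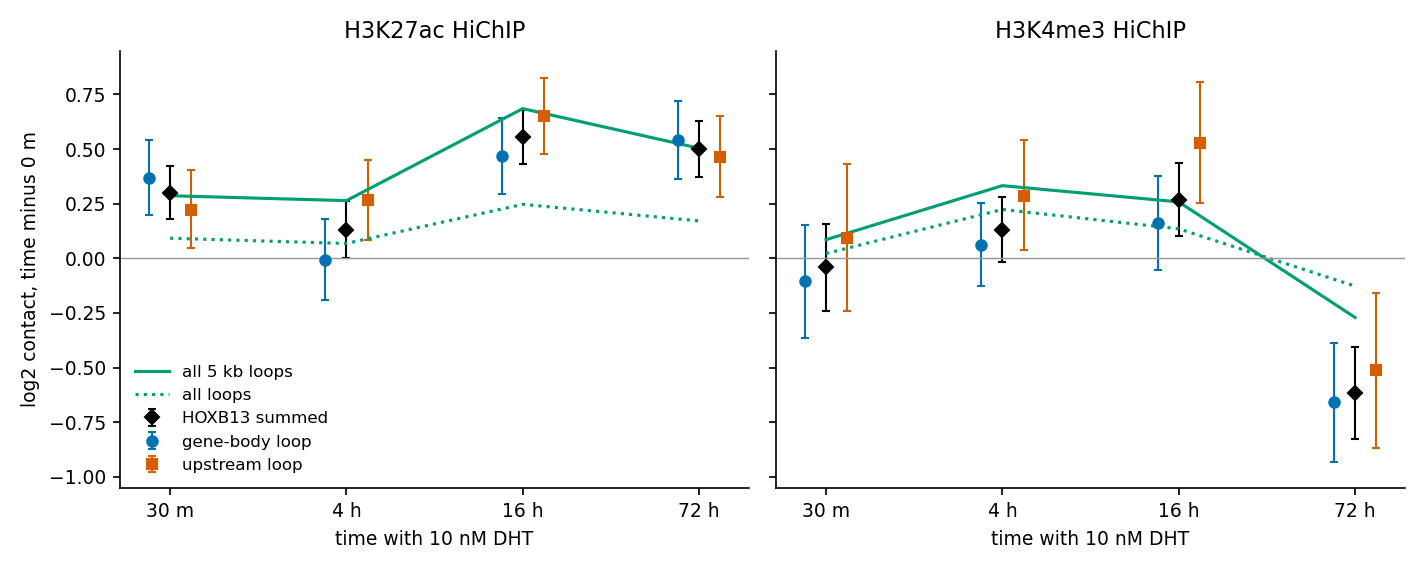
Log2 contact at each time of DHT minus that at 0 m, for the HOXB13 sum (diamonds), the gene-body loop (circles) and the upstream loop (squares) with 95% counting intervals, beside all 5 kb loops (solid line) and all loops (dotted line), in H3K27ac (left) and H3K4me3 (right). The HOXB13 sum lies near the solid line in H3K27ac, 0.56 against 0.69 at 16 h, and below it in H3K4me3 at 72 h, -0.62 against -0.27.

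The 5 kb class is made mostly of weaker loops, so each strong loop was also set beside 5 kb loops of like contact, those whose mean over the 5 tables lay within 1.5-fold of its own; this comparison was chosen after the data were seen. At 16 h in H3K27ac the gene-body loop differed from 0 m by 0.47 (0.29 to 0.64), and its 74 like loops had a median of 1.37 (quartiles 0.95 and 1.66), 72 of them above it. The upstream loop differed by 0.65 (0.48 to 0.83), and its 79 like loops had a median of 1.32, with 72 above it. At 72 h the medians of the like loops were 1.04 and 1.03, against 0.54 for the gene-body loop and 0.47 for the upstream loop, with 61 of 74 and 67 of 79 higher. The like loops were chosen on a mean that includes the late tables, which favours loops that rose. At 0 m their mean contact was 84.8 and 83.2, below the 123 and 116 of the gene-body and upstream loops, so their larger rise is in part set by the choice and nothing is read from it about HOXB13.

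In H3K4me3 the like loops numbered 471 for the gene-body loop and 1345 for the upstream loop. At 72 h their medians were -0.48 and -0.41, beside -0.66 (-0.93 to -0.39) for the gene-body loop and -0.51 (-0.87 to -0.16) for the upstream loop. Each HOXB13 interval held the median of its like loops. These too were chosen on a mean over all times, and at 0 m their mean contact was 64.4 and 42.3, below the 81.5 and 45.4 of the HOXB13 loops, so the same limit holds. At 16 h the upstream loop differed from 0 m by 0.53 (0.25 to 0.81), above the median of 0.23, with 158 of the 1345 higher.

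No HOXB13 loop passed the 2-fold threshold at any time in either mark. Of the 9 loops, 2 had the 20 read pairs needed to be counted in each comparison, and 3 at 4 h in H3K4me3. Over all loops with enough read pairs, the percentage at least 2-fold higher than 0 m was 10.7, 7.02, 18.3 and 15.4 at the 4 times in H3K27ac, and 3.15, 15.2, 6.5 and 2.4 in H3K4me3. For loops at least 2-fold lower the percentages were 6.02, 3.02, 5.9 and 6.61 with H3K27ac, against 3.79, 3.36, 2.21 and 5.86 in H3K4me3.

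For the promoter as a whole the threshold was 1.5-fold with at least 50 read pairs, and HOXB13 passed it once, as lower at 72 h in H3K4me3, where 6.03% of 12115 coding promoters did. The call was close to the threshold: the log2 difference of -0.62 became -0.49 under equal totals of read pairs, -0.55 by 5 kb bin overlap, -0.50 with the H3K27ac set alone and -0.55 without the strongest loop, each a fall of less than 1.5-fold. Its change there lay at percentile 4.72 of these promoters, whose median was -0.16. In H3K27ac its changes lay at percentiles 53.4, 63.5, 79.8 and 76.4 at the 4 times, where the promoter medians were 0.27, 0.04, 0.16 and 0.17. HOXB13 contact lay almost wholly in 5 kb loops, while other promoters hold loops of mixed length, so these percentiles do not compare like lengths. Set against other 5 kb loops, HOXB13 differed by -0.13 at 16 h and -0.0045 at 72 h in H3K27ac. At 72 h in H3K4me3 that difference was -0.35. The percentages of coding promoters at least 1.5-fold higher at the 4 times were 18.8, 3.7, 18.5 and 17.9 in H3K27ac and 0.873, 14.8, 3.9 and 1.39 in H3K4me3, and the percentages as much lower were 3.21, 0.999, 7.97 and 5.82 in H3K27ac and 1.36, 2.59, 0.52 and 6.03 in H3K4me3. At 72 h H3K27ac contact was higher and H3K4me3 contact lower than at 0 m for 48.2% of the 11133 promoters with enough read pairs in both marks. Changes at least as large as those of HOXB13 in both directions were found for 123 of them (1.10%, HOXB13 included), a count chosen after its values were seen. Taken singly, 2609 of the 11133 had a rise at least as large in H3K27ac and 507 a fall at least as large in H3K4me3. Nothing unusual is read from the joint count.

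The steps between successive time points were given by the strong loops separately. From 30 m to 4 h the gene-body loop fell by 0.38 in H3K27ac (-0.53 to -0.22), while the upstream loop differed by 0.04 (-0.11 to 0.20) and all 5 kb loops by -0.02. From 4 h to 16 h both rose, by 0.47 (0.32 to 0.63) and 0.38 (0.24 to 0.53), beside 0.42 for all 5 kb loops. From 16 h to 72 h in H3K4me3 the HOXB13 sum fell by 0.88 (-1.08 to -0.69), beside -0.53 for all 5 kb loops. That last step was the largest between successive times for the HOXB13 sum in either mark.

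The balance between the strong loops was close to even in H3K27ac and moved most between 30 m and 4 h. Of their joint read pairs the upstream loop held 48.6%, 46.1%, 53.4%, 51.8% and 47.4% over the successive H3K27ac tables. In H3K4me3, the mark from which only the gene-body loop of the pair was called, it held 35.8%, 39.0%, 39.4%, 41.8% and 38.2%. From 30 m (43.7% to 48.6%) to 4 h (50.5% to 56.2%) the H3K27ac intervals did not overlap and the upstream loop became the stronger, while in H3K4me3 contact leaned to the gene body throughout. The exact binomial intervals reached from 43.7% to 56.2% over the H3K27ac tables and from 31.3% to 45.3% over the H3K4me3 tables. The log2 change of the upstream loop exceeded that of the gene-body loop by 0.27 at 4 h in H3K27ac (Wald interval 0.02 to 0.53) and by 0.37 at 16 h in H3K4me3 (0.02 to 0.71). The intervals of the other 6 differences included 0.

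**Figure D3:**
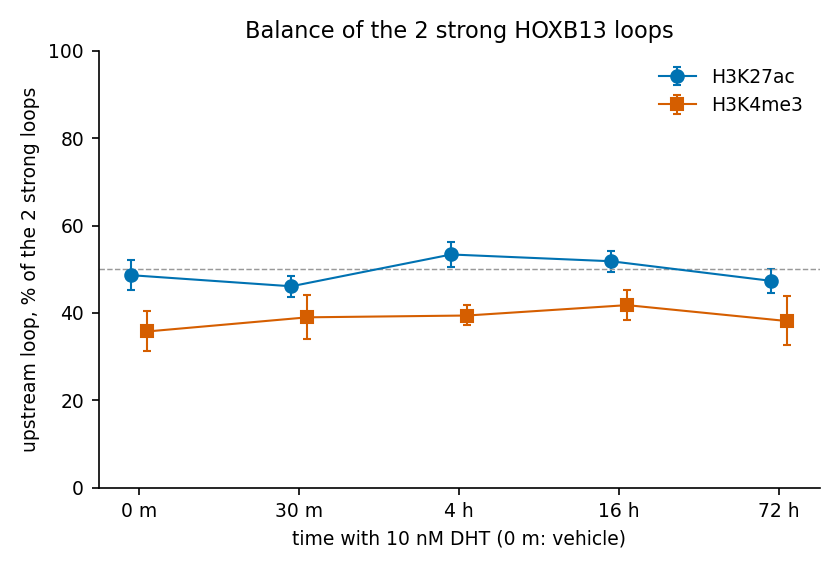
Upstream loop as a percentage of the read pairs of the 2 strong HOXB13 loops, against time with DHT, for H3K27ac (circles) and H3K4me3 (squares), with exact 95% binomial intervals and a dashed line at 50%. The H3K27ac shares lie around the line, from 46.1% to 53.4%, and the H3K4me3 shares below it, from 35.8% to 41.8%.

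The 7 long loops held 0.772% to 1.10% of HOXB13 contact in H3K27ac and 0.977% to 3.43% in H3K4me3. Over all 10 tables they had 146 read pairs together, and no single value exceeded 14 read pairs or a contact of 1.97. They are near the limit of detection: an absence of read pairs still allows 3 as a one-sided 95% limit, a contact of 0.540 to 0.882 in the H3K27ac tables and of 0.238 to 1.02 in the H3K4me3 tables. The upper end of a two-sided interval lies above that limit. The upstream 215 kb loop, to the promoter of SNF8 (a subunit of the ESCRT-II sorting complex), was the best filled. It had a contact of 0.294, 1.62, 0.855, 0.637 and 0.263 in H3K27ac, from 1, 9, 4, 3 and 1 read pairs, and 1.97, 0.683, 1.11, 0.193 and 0.550 in H3K4me3, from 7, 2, 14, 1 and 2. Neither series showed a steady course.

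Further upstream, a loop of 275 kb reached an intron of IGF2BP1 (an RNA-binding protein), one of 605 kb an intron of ZNF652 (a zinc finger protein) and one of 685 kb the promoter of PHB1 (a prohibitin of the mitochondrial inner membrane). Downstream, the 570 kb loop reached an intron of SKAP1 (an adaptor of T-cell signalling), the 725 kb loop sequence with no annotated gene and the 835 kb loop the promoter of SP2 (an Sp-family transcription factor) within its divergent transcript SP2-DT. The mean contacts of these 6 lay between 0.246 and 0.567 in H3K27ac and between 0.246 and 0.464 in H3K4me3. Summed, the 7 long loops in H3K27ac had 9, 18, 12, 13 and 10 read pairs, with no difference from 0 m outside counting error. In H3K4me3 they had 16, 10, 42, 8 and 8, and the contact at 16 h was 1.55 against 4.51 at 0 m, a log2 difference of -1.54 (-2.98 to -0.24), in the opposite direction to the strong loops at that time.

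**Figure D4:**
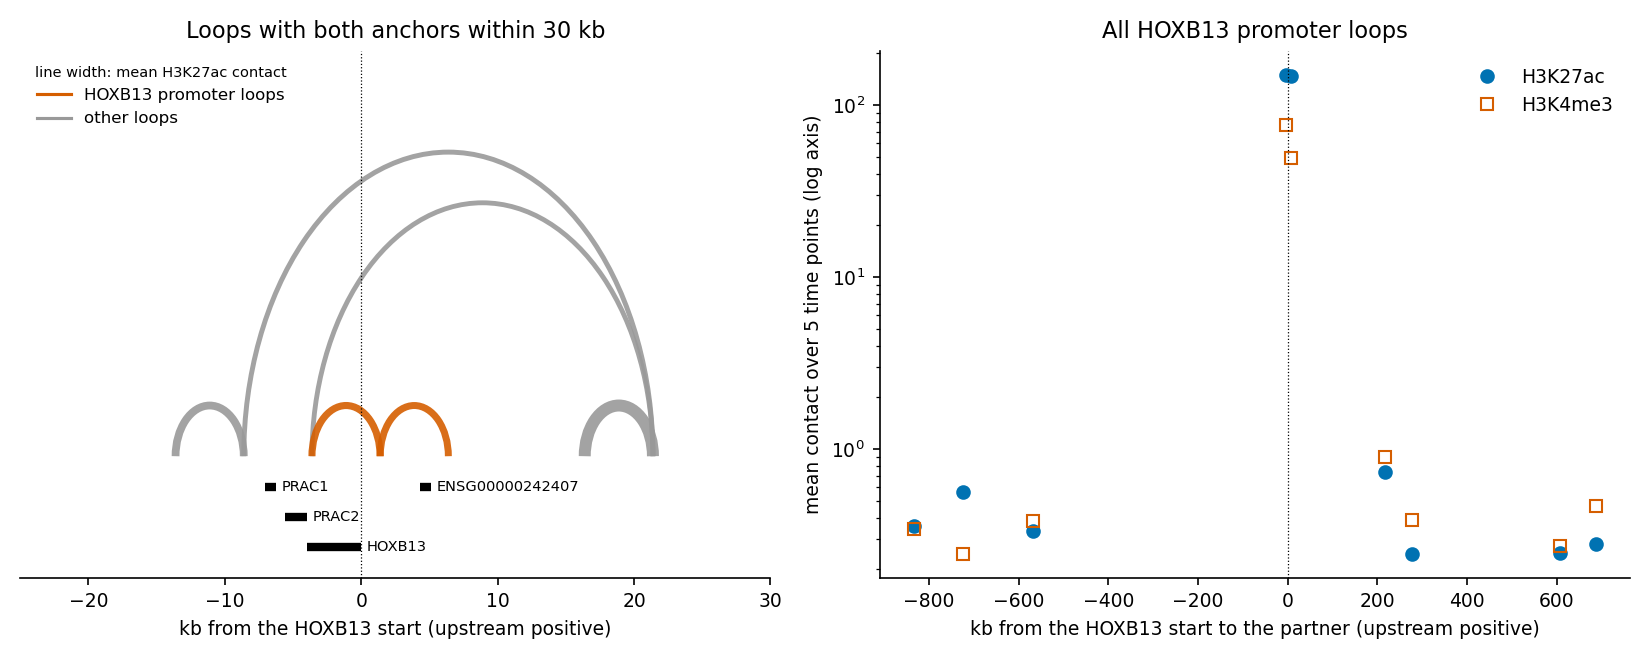
Left: loops with both anchors within 30 kb of the HOXB13 start, drawn as arcs over position in kb (upstream positive) with line width set by mean H3K27ac contact; the 2 HOXB13 promoter loops are coloured, other loops are grey and genes are black bars. Right: mean contact of all 9 HOXB13 promoter loops on a log axis against the distance of the partner, for H3K27ac (circles) and H3K4me3 (squares); the 2 short loops lie above 49 and the 7 long ones below 1.

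The bin next to the promoter bin had loops of intermediate length. That bin holds the 3′ end and most of the body of HOXB13, and parts of the promoter windows of PRAC2 and PRAC1. It was joined to a site 21.4 kb upstream of the HOXB13 start by a loop of 25 kb. No loop from the promoter bin to that site was called. The authors merged neighbouring loops into a single one when calling, and contacts outside the called loops were not used here, so the contact of the promoter bin with that site is not known. This gene-body bin loop had an H3K27ac contact of 67.6, 95.5, 72.0, 142 and 105 at the 5 times and an H3K4me3 contact of 32.4, 33.5, 28.9, 49.5 and 20.6. At 16 h it differed from 0 m by 1.08 in H3K27ac (0.86 to 1.30), more than either strong promoter loop, whose intervals ended at 0.64 and 0.83. The same bin also reached 61.4 kb upstream, to an exon of TTLL6 (a tubulin-modifying enzyme), with an H3K27ac contact of 33.2, 41.7, 39.3, 45.9 and 33.9. If a promoter is taken as every 5 kb bin that overlaps its window, these and 3 weaker loops are added and HOXB13 has 14 loops.

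HOXB13 had few loops but much contact. Its 9 loops put it at percentile 30.6 of the 16251 coding promoters with a loop, whose median was 20 (quartiles 6 and 38). By summed H3K27ac contact it ranked 31st, 36th, 18th, 35th and 29th over the times, of 16251 promoters. By summed H3K4me3 contact it ranked 1687th, 1967th, 2093rd, 1210th and 3070th, between percentiles 81.1 and 92.6. Per loop, its mean contact ranked between 9th and 21st in H3K27ac and between 110th and 166th in H3K4me3. Counted by loop strength, the gene-body loop itself was between the 18th and the 69th strongest of all loops in H3K27ac.

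The inequality of the loops was measured by the Gini index, 0 for equal contacts and highest when a single loop holds all. Its highest possible value is below 1 and is lower for a promoter with fewer loops. The percentiles given here therefore compare promoters with unlike limits. It lay between 0.774 and 0.780 in H3K27ac and between 0.782 and 0.790 in H3K4me3 over the 5 times. At 16 h these were percentile 87.7 of 14640 promoters in H3K27ac (median 0.652) and percentile 98.2 of 14704 in H3K4me3 (median 0.570). The gene-body loop was the strongest by mean in both marks, though it was called only from H3K4me3. It held 50.8%, 53.3%, 46.2%, 47.8% and 52.2% of HOXB13 contact in H3K27ac and 62.0%, 59.4%, 59.2%, 57.6% and 60.3% in H3K4me3. At 4 h in H3K27ac the upstream loop was the stronger. At 16 h it held 51.8% of the read pairs of the strong loops, with an interval that included an even split (49.4% to 54.3%).

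The other HOXB genes contrasted with HOXB13 in level. Of HOXB1 to HOXB9, which pattern more anterior parts of the body, HOXB1 and HOXB4 had no loop, and the other 7 had 3 to 39 loops, none shared with HOXB13. At 16 h their summed H3K27ac contact ran from 2.76 to 35.9 and their H3K4me3 contact from 2.32 to 21.6, beside 355 and 158 for HOXB13. HOXB9, the nearest to HOXB13 in the cluster, had the most, 30.3, 30.6, 25.9, 35.9 and 38.4 over the H3K27ac times. Of the paralogs of the same group, HOXC13 had 45 loops and 79.2 and 112 at 16 h, HOXA13 18.0 and 7.15, and HOXD13 1 loop with 0.212 and 0.967. HOXC13 did not share the late course of HOXB13: its H3K27ac sum differed from 0 m by -0.06 at 16 h (-0.28 to 0.17) and its H3K4me3 sum by -0.04 at 72 h (-0.22 to 0.14).

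Among the 8 neighbours, 7 had loops and 3 shared a loop with HOXB13: PRAC1 and PRAC2 through the gene-body loop, and SNF8. PRAC1, a small nuclear protein gene of prostate and distal gut, had 106 loops and a summed H3K27ac contact of 1050 at 16 h, above HOXB13. That sum joins the loops of neighbouring bins, 680 from 100 loops and 369 from 6, whereas HOXB13 was counted from a single anchor. PRAC2 had 6 loops and 369. In H3K27ac at 16 h PRAC1 differed from 0 m by 0.69 (0.62 to 0.77) and PRAC2 by 0.63 (0.51 to 0.75), and in H3K4me3 at 72 h by -0.24 (-0.37 to -0.12) and -0.55 (-0.75 to -0.36). These values are not independent: PRAC1 and PRAC2 both count the gene-body loop of HOXB13, and all 6 loops of PRAC2 are among the 106 of PRAC1. At 16 h in H3K27ac 3 of the 7 neighbours with enough read pairs (PRAC1, PRAC2 and ATP5MC1) were at least 1.5-fold higher, where 18.5% of promoters were, and the first pair shares read pairs. At 30 m, 4 h and 72 h the counts were 1, 0 and 1, where 18.8%, 3.7% and 17.9% of promoters were. TTLL6 was lower at 72 h in H3K27ac, by -0.36 (-0.59 to -0.13), which did not reach 1.5-fold.

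Of 5 other transcription factor genes of prostate or of HOX complexes, FOXA1 alone exceeded HOXB13 in H3K27ac at 16 h, with 398, and none did in H3K4me3. FOXA1 contact in H3K27ac was 242 at 0 m, as high as that of HOXB13, but 192 at 30 m and 183 at 4 h, a log2 difference of -0.34 (-0.47 to -0.20) and -0.40 (-0.54 to -0.26) where HOXB13 was higher. GATA2, a further pioneer factor, differed from 0 m by 1.24 at 16 h (1.04 to 1.44). GRHL2, an epithelial factor, had 220 at 0 m and differed by 0.13 (-0.0089 to 0.26). MEIS1, a TALE cofactor of HOX proteins, had 111 at 16 h and its relative MEIS2 1.70. Of the 4 with enough read pairs, 2 (FOXA1 and GATA2) were at least 1.5-fold higher at 16 h in H3K27ac, where 18.5% of promoters were. At 72 h in H3K4me3 0 of 5 were at least 1.5-fold lower, where 6.03% of promoters were.

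**Figure D5:**
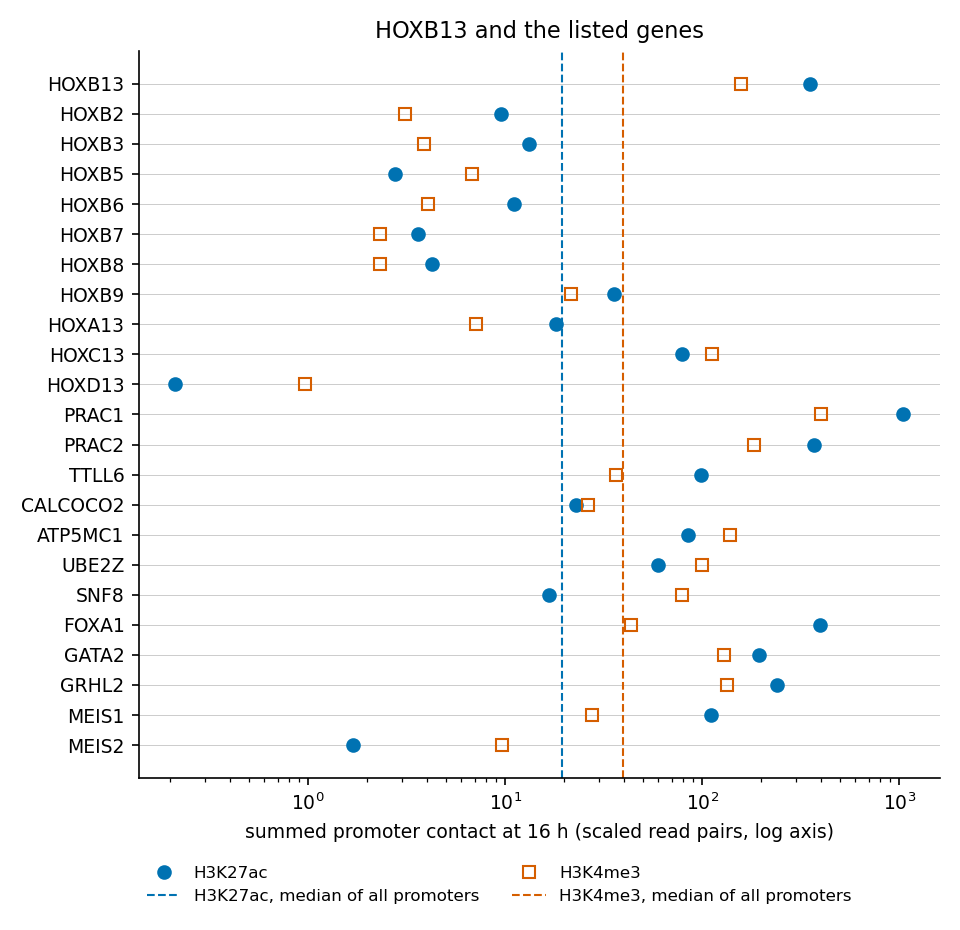
Summed promoter contact at 16 h on a log axis for HOXB13 and for the listed genes that had a loop, in H3K27ac (circles) and H3K4me3 (squares), with dashed lines at the medians of all coding promoters with loops, 19.5 and 39.8. HOXB13, at 355 and 158, lies far to the right of HOXB2 to HOXB9, and PRAC1 and PRAC2 lie beside or beyond it.

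The labelled cell type was checked by promoter contact. The luminal prostate markers KLK3, KLK2, TMPRSS2 and FOLH1 all had loops, with 102 to 421 in H3K27ac at 16 h, and the basal markers KRT5, KRT14 and TP63 and the leukocyte marker PTPRC had none. The fibroblast markers COL1A1 and PDGFRA had 17 and 7 loops, with 29.7 and 2.34. KLK3, the androgen-regulated gene of prostate-specific antigen, differed from 0 m in H3K27ac by 1.04 at 4 h (0.89 to 1.19), a time when HOXB13 differed by 0.13, and by -0.79 at 72 h (upper end of the interval -0.59), when HOXB13 differed by 0.50. At 16 h KLK3 differed by 0.57 (0.42 to 0.73), close to the 0.56 of HOXB13, but in H3K4me3 it differed by 1.58 (1.34 to 1.83) at that time, against 0.27 for HOXB13. The luminal markers did not share a single course. In H3K27ac KLK2 differed from 0 m by 1.08, 0.88 and -0.35 at 4 h, 16 h and 72 h. TMPRSS2 differed by 0.34, -0.05 and -0.10 at those times, and FOLH1 by -0.28, 0.52 and -0.07.

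The genes whose 10 contacts most resembled those of HOXB13 were SERF2, ACOT9, ACYP1, TREX1 and TM9SF1. Likeness was the Euclidean distance of the log2 contacts, each relative to the mean of its mark, over the 10 tables among 7609 promoters with at least 500 read pairs per mark and no loop shared with HOXB13. SERF2 was nearest at a distance of 0.252, and TM9SF1 was at 0.296, where the median gene was at 0.756. SERF2 contact in H3K27ac was 52.0, 66.9, 54.3, 86.4 and 77.6, and in H3K4me3 104, 113, 117, 124 and 75.9. Like HOXB13 it rose at 16 h in H3K27ac and fell at 72 h in H3K4me3, which follows from its choice on these same values. By Pearson correlation over the same 10 values the nearest were NAP1L4, MCMBP, SERF2, IL11RA and MYG1, so 1 of the 5 named was kept. All genes were read from the same 10 tables, and the tables of a mark were scaled together.

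Depth differed between the tables. The called loops held 2475168 to 4308555 read pairs per H3K27ac table and 2153262 to 10675614 per H3K4me3 table, the deepest being 4 h in H3K4me3, and 1 read pair was worth 0.180 to 0.294 and 0.0792 to 0.342 in contact. The strong HOXB13 loops had 116 to 1074 read pairs in every table, which sets the width of the counting intervals given. For the long loops differences of less than several-fold were not detectable at this depth.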

How the data were processed

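LNCaP HiChIP was analysed for 15 labelled samples, 10 of H3K27ac and 5 of H3K4me3. The authors trimmed reads with Trim Galore 0.5.0, aligned them to hg19 with HiC-Pro 3.1.0 and Bowtie2, kept mapping quality of 20 or more, removed duplicates and called loops with FitHiChIP in 5 kb bins (q-value 0.01, up to 3 Mb) on the merged time points of each mark. The values deposited by the authors are contact signal per loop, scaled by TMM among the 5 time points of a mark, in 10 tables of 574817 lines. Whether both H3K27ac replicates entered a value is not given in the sources used here. In each table every value (100%) divided by the smallest step gave a whole number (tolerance 0.001), which was taken as its read pairs.

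Repeated anchor pairs were counted once. Promoters were 2.5 kb on either side of the canonical start of coding genes (Gencode 44 on GRCh37), and sequence was read from GRCh37. Calls needed 2-fold and 20 read pairs for loops, and 1.5-fold and 50 read pairs for promoters. Intervals were Clopper-Pearson for ratios and shares and Poisson for levels, at 95%, and cover counting error only. Methods were tested on simulated data. The rule named the 5 strongest loops per mark; the 570 kb and 605 kb loops fell outside it and were named after their values were seen. Named genes were the lists, promoters joined by those loops and the 5 most alike. Some listed genes are not reported here. Members and lists were chosen with earlier results of these data known. Alternatives varied scaling, overlap, reference, length, contact and window. Python 3.11.15, numpy 2.4.6, pandas 2.3.3, scipy 1.17.1 and matplotlib 3.10.9 were used.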

Additional observations from a re-analysis of the deposited data

How the results depend on the processing

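No paired analysis was possible because the tables give a loop a single value for each mark and time, so replicate numbers shared by the labels reach no value; leaving out a replicate was not possible for the same reason. The difference of HOXB13 summed contact from 0 m kept its direction for 30 m, 16 h and 72 h in H3K27ac and for 72 h in H3K4me3, and stayed inside its counting interval, under 5 kb bin overlap, under a minimum mean contact of 1, with either reference set alone and without the strongest loop. At 4 h in H3K27ac it was -0.0043 in the H3K4me3 set, -0.0062 as the median over loops, -0.045 for loops of at least 20 kb, 0.26 in the H3K27ac set and 0.26 without the strongest loop. With the H3K27ac set alone the H3K4me3 difference was 0.29 at 4 h and 0.53 at 16 h.

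Under equal totals of read pairs the difference was 0.31 at 16 h and 0.33 at 72 h in H3K27ac and -0.094 at 4 h in H3K4me3, and at 16 h in H3K4me3 it was 0.13 with an interval that included 0 (-0.033 to 0.30), as did that of 0.063 at 4 h in H3K27ac. The median over loops was 0.28 at 16 h and 0.24 at 72 h in H3K27ac, where 7 of the 9 loops are long and sparse. Loops of at least 20 kb alone, with 8 to 42 read pairs in each table, gave 0.062 at 16 h and -0.0072 at 72 h in H3K27ac, and -0.40, -0.44, -1.54 and -1.04 at 30 m, 4 h, 16 h and 72 h in H3K4me3.

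Relative to all loops of the same length class the H3K27ac differences were 0.019, -0.13, -0.12 and 0.00079 at the 4 times, and the H3K4me3 differences -0.20 at 4 h, 0.013 at 16 h and -0.36 at 72 h. Relative to 5 kb loops of like contact, chosen after the data were seen, they were -0.30, -0.021, -0.78 and -0.54 in H3K27ac and -0.29 at 4 h, 0.035 at 16 h and -0.17 at 72 h in H3K4me3. At 72 h in H3K4me3 the summed contact was no longer at least 1.5-fold lower under equal totals (-0.49), 5 kb bin overlap (-0.55), the H3K27ac set alone (-0.50), the median over loops (-0.46) or without the strongest loop (-0.55). By construction the relative values take off the change of the reference, which rose in H3K27ac and fell at 72 h in H3K4me3.

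With only loops of a mean contact of at least 1, which are the 2 strong ones, the Gini index was 0.0135, 0.0389, 0.0339, 0.0184 and 0.0264 over the H3K27ac times and 0.142, 0.110, 0.106, 0.0820 and 0.118 over the H3K4me3 times. With loops of at least 20 kb it was 0.476, 0.508, 0.405, 0.440 and 0.343, and 0.589, 0.343, 0.361, 0.464 and 0.286. The share of the strongest loop was then 11.1%, 50%, 33.3%, 23.1% and 10%, and 43.8%, 20%, 33.3%, 12.5% and 25%. Within the reference set of the mark it was 99.2%, 99.7%, 99.5%, 99.8% and 99.7%, and 94.8%, 96.5%, 96.3%, 98.5% and 96.4%, since each set holds 1 of the 2 strong loops.

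The percentile among promoters at 16 h was 99.9 in H3K27ac by mean contact per loop, in a window of 1 kb and in one of 5 kb, and 99.3 by mean contact per loop and 98.4 in a window of 5 kb in H3K4me3. HOXB13 had 14 loops by 5 kb bin overlap, and 1 of the 5 most similar genes was kept under Pearson correlation. The causes of the other changes were not tested. The depth of the tables limits the long loops, and the strong loops are adjacent-bin contacts at the shortest distance called.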
